A study of Bos taurus with 8 samples.

Results

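The microRNAs miR-192, miR-194 and miR-215 are described here in the mammary tissue of dairy and beef heifers. They were chosen by name, bta-miR-192, bta-miR-194 and bta-miR-215, as 3 of the 763 bovine miRNAs on the array, and they are read by 8 of its 1657 probes. Of the 3, miR-194 was above background on every array, miR-192 on the Limousin arrays alone and miR-215 on none, by the rule that more than 50% of a probe's spots must be well above background. In the values used here all 3 were brighter on each of the 4 Limousin arrays than on any Holstein-Friesian array, as were 16.0% of the 269 miRNAs tested. Breed results of these data were known when the 3 were chosen, so their breed values are a description and carry no test.

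The tissue was udder, taken at slaughter from non-pregnant heifers without signs of mastitis: 4 were Holstein-Friesian, a dairy breed, and 4 were Limousin, a beef breed. The labels give an age of 20 months in one field and of 2 years in another, and name no treatment or genotype in either breed. Each animal had 1 array, a one-colour Agilent miRNA array read from 100 ng of total RNA, and is called a biological replicate. All arrays lay on 1 slide and were scanned once, and each breed filled its own position index on it, so that breed and place cannot be told apart. In whole tissue, fewer cells of a type and less RNA per cell cannot be told apart either.

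Both miR-192 and miR-215 belong to 1 seed family, which means that they recognise target mRNAs through the same short 5′ stretch, whereas miR-194 has a seed of its own. In mammals each of miR-192 and miR-215 is made from a transcript that also carries a copy of miR-194. These miRNAs are abundant in liver, gut and kidney epithelium. The tumour suppressor p53 can also raise them, and in human cells miR-192 and miR-215 slow the cell cycle.

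The probes show which signals are separate and which are not, and the longest probe of each miRNA is given 5′ to 3′, with capitals for the run of 14 bases that miR-192 and miR-215 probes share.
miR-192, 18 bases: ctggCTGTCAATTCATAG
miR-215, 19 bases: tgtCTGTCAATTCATAGgt
miR-194, 16 bases: tccacatggagttgct
The shared run makes up 77.8% of the miR-192 probe and 73.7% of the miR-215 probe. It lies at base 5 of the first and base 4 of the second, so that the probes differ mainly at their 5′ ends. A probe is the complement of the RNA it captures, and the RNA stretches read by these probes, again with the shared run in capitals, are as follows.
RNA read for miR-192: CUAUGAAUUGACAGccag
RNA read for miR-215: acCUAUGAAUUGACAGaca
No other miRNA on the array had a probe that shared more than 7 bases in a row with the longest probe of miR-192 or miR-215. The miR-194 probe shared 3 bases in a row with each of them and at most 8 with any other miRNA, miR-490. How far miR-192 and miR-215 RNA bind each other's probes was not tested, and their separate values are uncertain for that reason.

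The array annotation, in the UMD 3.1 build, places the miR-192 probe at chr29:43731685-43731701 and the miR-215 probe at chr16:24305752-24305769. The miR-194 probe matches 2 places, chr29:43731480-43731495 and chr16:24306050-24306065. On chromosome 29, 189 bases lie between the probe sites of miR-192 and miR-194, and on chromosome 16, 280 bases lie between those of miR-215 and miR-194. For miR-192 and miR-215 the listed interval is 1 base shorter than the probe. The signal of miR-194 therefore sums both clusters, and no probe assigns it to either. In RefSeq's list of cattle genes (assembly ARS-UCD2.0), which named all 3 miRNAs, MIR192 is next to MIR194-2 and lies within the span of EHD1, a gene of endocytic recycling. MIR215 is next to MIR194-1 within the span of IARS2, the mitochondrial isoleucyl-tRNA synthetase. That list gives no strand.

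Across the 8 arrays 28.6% to 35.5% of the 45780 spots were well above background and no spot was saturated. The Limousin arrays were brighter: the 75th percentile of the probes detected on all arrays was 943, 1177, 1245 and 1579 intensity units there, and 557, 619, 631 and 939 in Holstein-Friesian. Signals were divided by that percentile and are given as log2 of the scaled intensity unless called unscaled. Epithelial miRNAs marked the tissue: all 6 markers (miR-141, miR-200a, miR-200b, miR-200c, miR-205 and miR-429) were detected on all 8 arrays and none of them passed the breed test (limma, median difference 0.06). The stromal markers were detected on all arrays too, 4 of 4, and 1 of them, miR-199a-3p, was higher in Limousin by 0.47 (limma adjusted p = 0.0115), while miR-143, miR-145 and miR-214 were at -0.06, -0.23 and 0.0048 and did not pass. The liver miRNA miR-122 was well above background on no array, as were 2 of 3 red cell markers, miR-144 and miR-486. The third, miR-451, was detected on all 8 arrays, at a difference of -0.35 (limma adjusted p = 0.544). The endothelial markers miR-126-3p and miR-126-5p were detected on all 8 too, at 0.20 and 0.41 (limma adjusted p = 0.230 and 0.0779). Among skeletal muscle markers, miR-1 was detected on 4 Limousin and 2 Holstein-Friesian arrays, miR-133b on 2 and 1, miR-133a on 1 and 0, and miR-206 on none. Of the leukocyte markers 4 of 5 were detected on all arrays and 2 of these, miR-142-5p and miR-155, were higher in Limousin, by 0.56 and 0.95 (limma adjusted p = 0.0222 and 0.00119), beside 13.8% of all tested miRNAs. The others, miR-150 and miR-223, were at 0.02 and -0.15 (limma adjusted p = 0.931 and 0.604). Summed over the 4 detected leukocyte markers, the scaled signal was 1477 to 1895 on Limousin arrays and 1026 to 1539 on Holstein-Friesian arrays, and the fifth marker, miR-142-3p, was well above background on no array. The part of leukocyte, stromal, endothelial, red cell or muscle content in the values that follow was not tested.

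The only one of the 3 that was measured in both breeds was miR-194, which in liver cells is known as an epithelial miRNA that represses N-cadherin. Its 16-base probe read 6.18, 6.25, 6.40 and 6.21 in Holstein-Friesian replicates 1 to 4 and 6.96, 7.05, 6.89 and 7.01 in Limousin replicates 1 to 4. The breeds did not overlap, and 0.48 separated the highest Holstein-Friesian from the lowest Limousin array. The Limousin mean of 6.98 ± 0.07 exceeded the Holstein-Friesian mean of 6.26 ± 0.10 (SD, n = 4 each) by 0.72 on the log2 scale, or 1.65-fold. The spots of the probe were well above background throughout, 118 of 118 in Limousin and 115 of 115 in Holstein-Friesian. The 15-base probe, which lacks the last base of the longer one, gave a log2 difference of 0.77 from means of 6.005 ± 0.04 and 5.24 ± 0.12 (SD, n = 4), again with no overlap. Between 24 and 29 of its 29 or 30 spots were well above background on a Holstein-Friesian array, against 119 of 119 over the Limousin arrays. Within an array the spots of the 16-base probe varied by 5.42% to 14.6% (coefficient of variation).

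**Figure D1:**
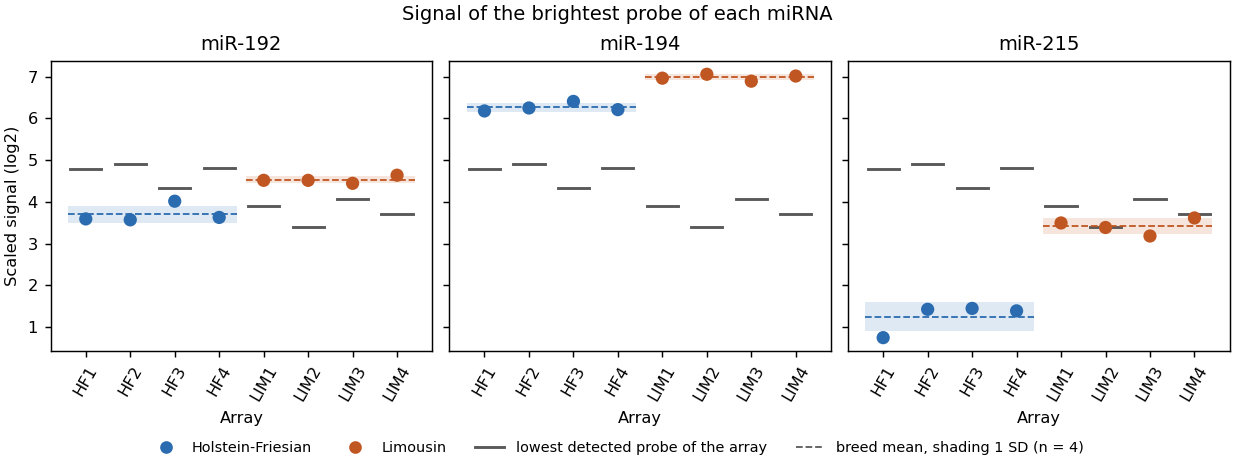
Scaled log2 signal of the brightest probe of miR-192, miR-194 and miR-215 on each array (HF, Holstein-Friesian; LIM, Limousin). Points are arrays, dashed lines breed means with 1 SD shaded (n = 4), and grey bars the lowest signal of any detected probe on that array. The Limousin points of miR-194 sit between 6.89 and 7.05, above all Holstein-Friesian points, while miR-192 lies over the grey bar on Limousin arrays alone and miR-215 on none.

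The cell cycle regulator miR-192 was read above background by its longest probe alone. That 18-base probe had 15, 15, 12 and 15 of 15 spots well above background on Limousin replicates 1 to 4, and 0, 0, 1 and 0 of 15 on the Holstein-Friesian replicates. Its scaled log2 signal was 4.52, 4.52, 4.44 and 4.64 in Limousin and 3.59, 3.57, 4.02 and 3.63 in Holstein-Friesian. No Holstein-Friesian array reached the Limousin values, and replicate 3 came nearest, 0.43 below the lowest of them. The means were 4.53 ± 0.08 and 3.70 ± 0.21 (SD, n = 4). The 0.83 between them is a difference of measured signals. No fold is given, since no Holstein-Friesian array was above background by the detection rule. Unscaled, the Holstein-Friesian signals were nonetheless 7.92, 6.89, 15.8 and 7.97 in replicates 1 to 4. Each lay over the 95th percentile of that array's negative-control spots (4.64, 3.94, 4.24 and 4.02). On the scaled log2 scale the mean detection limit of the Holstein-Friesian arrays, 4.71, lay above the Limousin mean of miR-192. A signal at the Limousin level would thus on average have lain under that limit. Replicate 3 is the exception: its lowest detected probe was at 4.33, under all 4 Limousin values of miR-192, and its own miR-192 signal was 4.02. Of the 269 miRNAs tested, 9 had this pattern of detection on all Limousin and no Holstein-Friesian arrays, and 1 had the opposite pattern.

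**Figure D2:**
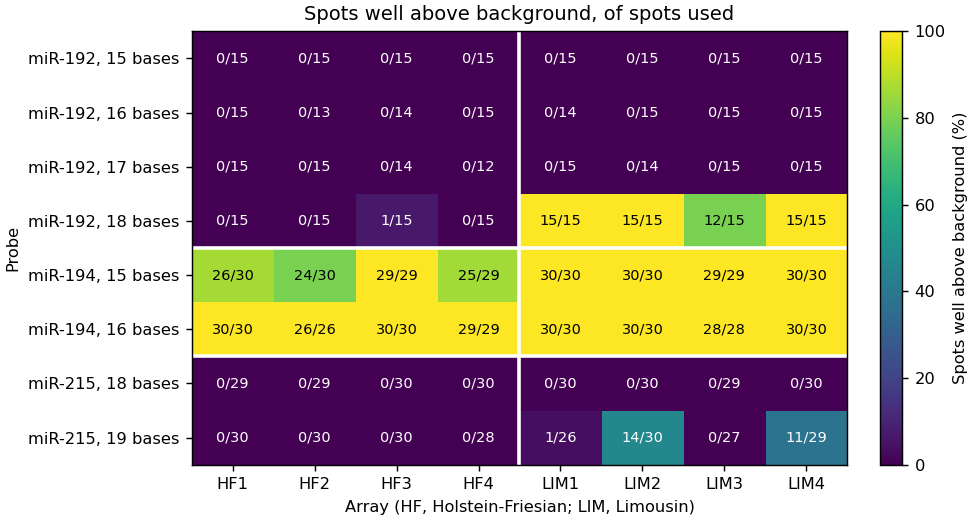
Share of spots well above background for the 8 probes (rows, by length) on the 8 arrays (columns); the cell text gives spots above background of spots used. Both miR-194 probes are bright in every column, while the 18-base miR-192 probe reaches 12 to 15 of 15 spots in the Limousin columns and 0 or 1 of 15 in the others.

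The shorter miR-192 probes, of 15, 16 and 17 bases, had 0 spots well above background on every array. They are cut from the same sequence at its 3′ end, and the shortest, ctggCTGTCAATTCA, holds only 11 of the 14 shared bases. The unscaled signal of this probe was 0.877 ± 0.758 in Limousin against 0.171 ± 0.523 in Holstein-Friesian (SD, n = 4 each). Both lie within the range of the negative-control spots, whose mean was between -1.43 and -0.228 and whose 95th percentile was between 3.48 and 4.73 on the 8 arrays. At 17 bases the unscaled signal was 7.31 ± 2.30 in Limousin and 2.39 ± 1.29 in Holstein-Friesian, and at 18 bases 29.8 ± 6.85 and 9.65 ± 4.14 (SD, n = 4). The breed values overlapped on the scaled log2 scale for the 3 shorter probes and not for the longest. On each Limousin array the unscaled 17-base signal (7.06, 9.96, 4.40 and 7.81) lay over the 95th percentile of that array's negative-control spots. On each Holstein-Friesian array (3.42, 1.04, 3.57 and 1.53) it lay under that percentile. Detection of miR-192 by the 50% rule rests on 15 spots of 1 probe per array.

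**Figure D3:**
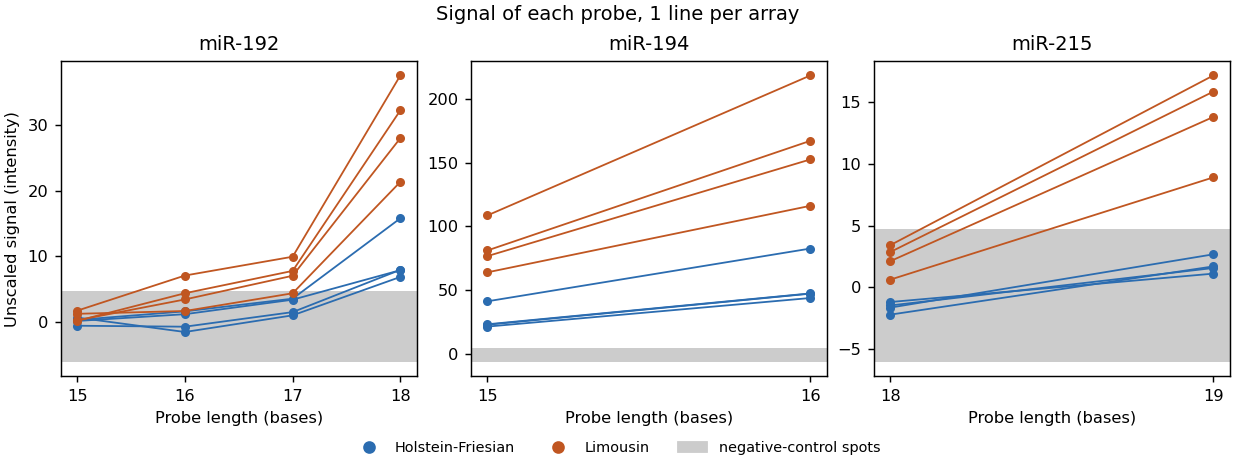
Unscaled signal (intensity) of each probe against its length in bases, with 1 line per array, blue for Holstein-Friesian and orange for Limousin. The grey band runs from the lowest 5th to the highest 95th percentile of the negative-control spots over the arrays; the 15-base miR-192 probe lies in it on all arrays, and the 18-base miR-215 probe too.

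The seed partner miR-215 was well above background on no array by the 50% rule. Its 19-base probe had 1 of 26, 14 of 30, 0 of 27 and 11 of 29 spots well above background on Limousin replicates 1 to 4, and 0 of 118 spots over the Holstein-Friesian arrays. The unscaled signal was 13.8, 17.2, 8.91 and 15.9 on the Limousin arrays and 1.105, 1.56, 2.67 and 1.69 on the Holstein-Friesian arrays. All Limousin signals lay over the 95th percentile of the negative-control spots of their own array, and all Holstein-Friesian signals under it. That percentile is one of single spots and the signals are means over spots, so a signal under it need not equal background. Each Holstein-Friesian signal lay above the mean of the negative-control spots, which was -0.87 to -0.33 on those arrays. On the scaled log2 scale the values were 3.18 to 3.62 against 0.75 to 1.45, with no overlap. The measured means were 3.42 ± 0.18 and 1.26 ± 0.34 (SD, n = 4), and as neither breed was above background by the rule, the 2.16 between them is a difference of weak signals and no fold is given. The 18-base probe, which lacks the last base, had 0 spots well above background on every array and read 2.25 ± 1.21 in Limousin and -1.64 ± 0.43 in Holstein-Friesian (SD, n = 4, unscaled). On Limousin replicate 3 a spot flagged as not uniform was among the 3 of 30 left out for the 19-base probe.

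Feature Extraction, the scanner software, applies a detection call of its own to each miRNA. It called miR-194 on all 8 arrays, miR-192 on all 4 Limousin arrays and on Holstein-Friesian replicate 3, and miR-215 on Limousin replicates 1, 2 and 4. For these the total signal of miR-192 was 7.996, 10.6, 6.003 and 9.10 in Limousin, each with a software error of 1.14 to 1.45, and 4.48 with an error of 1.18 in Holstein-Friesian replicate 3. The totals of miR-215 were 7.89, 9.69 and 8.95 with errors of 2.15 to 2.20. In the deposited value table undetected miRNAs sit at a fixed value per column, between -9.79 and -8.53. There miR-194 ran from 0.94 to 1.06 in Limousin and from -0.19 to 0.14 in Holstein-Friesian, and miR-192 from -3.13 to -2.97 in Limousin and -3.84 in the only Holstein-Friesian sample where it was detected. The miR-215 values of the 3 Limousin samples were -3.19 to -2.99.

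The brightness of the arrays differed within the breeds too. In Holstein-Friesian replicate 3, the brightest array of its breed, all 3 miRNAs had the highest scaled value of the breed, and in Limousin replicate 3, the dimmest array of its breed, all 3 had the lowest. The other extremes did not follow brightness throughout: the highest Limousin array was replicate 2, the brightest, for miR-194 but replicate 4 for miR-192 and miR-215, and the lowest Holstein-Friesian array was replicate 2, the dimmest, for miR-192 but replicate 1 for miR-194 and miR-215. Holstein-Friesian replicate 3 and Limousin replicate 3 had nearly the same 75th percentile, 939 and 943, which is a ratio of 1.00 and lets unscaled signals be set side by side. Looked at after the values were seen, the Limousin array was higher in unscaled log2 by 0.43 for miR-192, by 0.49 for miR-194 and by 1.74 for miR-215, while the median of the 269 tested miRNAs was -0.07. Between these arrays 41.6% of the tested miRNAs were higher in Limousin by scaled signal, and miR-194 ranked 17th by that difference. With 1 array a breed this has no replicate check. Of all pairings of a Limousin with a Holstein-Friesian array, this one gave the smallest scaled difference for each of the 3, and the part of brightness in the breed values was not tested.

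**Figure D4:**
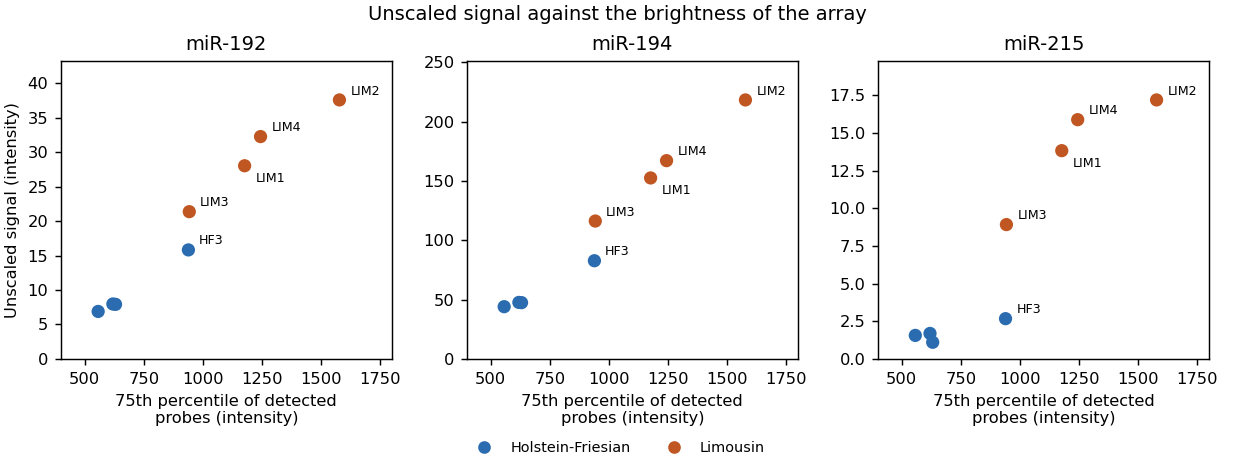
Unscaled signal of the brightest probe (intensity) against the 75th percentile of the probes detected on all arrays (intensity), 1 point per array; the 3 unlabelled points are Holstein-Friesian replicates 1, 2 and 4. Holstein-Friesian replicate 3 and Limousin replicate 3 share a brightness of 939 and 943, and the Limousin point is higher in all 3 panels.

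The fit across the array gives the frame for these values. The 269 tested miRNAs are those above background on every array of a breed or of both. Of these 42.0% passed the limma test at an adjusted p under 0.05: in Limousin 13.8% were higher and 28.3% lower. Both miR-192 and miR-194 were among those higher in Limousin, where miR-192 had entered the fit through the Limousin arrays alone, and miR-215 did not enter it. All 4 Limousin arrays lay above all 4 Holstein-Friesian arrays for 16.0% of the tested miRNAs, and miR-192 and miR-194 were among them. Nothing is read from these counts, since the contrast was known when the members were chosen. The difference of 0.72 for miR-194 ranked 12th of 269, with a median over all tested miRNAs of -0.07. Without scaling this difference was 1.57 and the median was 0.79.

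The sign of the scaled difference for miR-192 and miR-215 changed with the background setting and with the floor for weak signals. Before background correction and scaling, the 18-base miR-192 probe read 70.4 to 88.2 on Limousin and 56.0 to 66.5 on Holstein-Friesian arrays. The 19-base miR-215 probe read 58.2 to 68.2 and 50.4 to 53.2. Without background correction the sign thus changed at the scaling step, where the background is scaled too. The normexp setting adds an offset of 50 before scaling. With normexp background correction the difference of miR-192 was -0.43 and with no background correction -0.38, against medians of the tested miRNAs of -0.38 and -0.36. When weak signals were raised to the lowest detected probe of each array it was -0.18, with every Holstein-Friesian value replaced by that floor. For miR-215 the 3 values were -0.54, -0.50 and -0.94. Its signal lay under the floor on every array, so that -0.94 is a difference between floors and holds no miR-215 signal. The floor setting therefore cannot give a direction for miR-192 or miR-215. For miR-194 the difference stayed above 0 under each setting tried, but it was 0.14 and 0.21 under the first 2 settings, which is 0.52 and 0.56 above the median, and it was then no longer among the miRNAs called. A correction of each array for the GC content and length of the probes took miR-192 from 0.83 to 0.67 and miR-194 from 0.72 to 0.79. Their probes have 44.4% and 50% GC, and 35.7% and 48.0% of all probes have less.

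**Figure D5:**
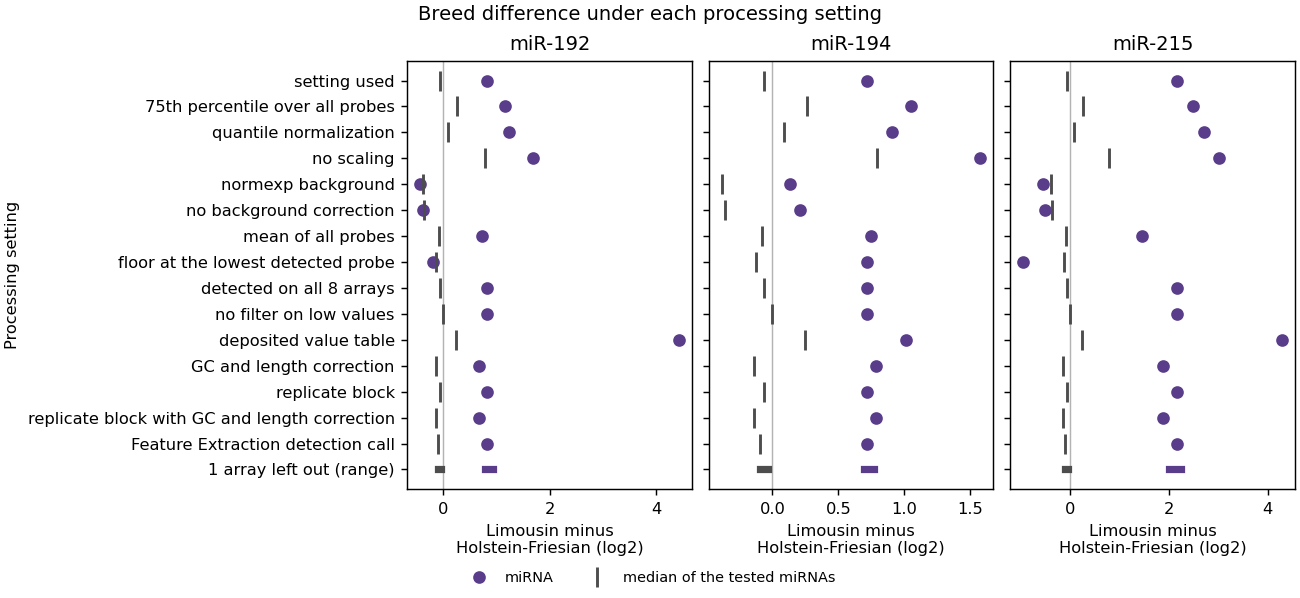
Difference between breeds (Limousin minus Holstein-Friesian, log2) of miR-192, miR-194 and miR-215 under each processing setting, with purple points for the miRNA and grey ticks for the median of the tested miRNAs; the lowest row gives the range when 1 array was left out. All settings put miR-194 above both 0 and the median, whereas miR-192 and miR-215 fall below 0 under the 2 other background settings and with the raised floor. With the raised floor, the miR-215 values of every array and the Holstein-Friesian values of miR-192 are the floor itself.

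The tested miRNAs whose profile over the 8 arrays was most like that of miR-192 were miR-146b, miR-194, miR-101, miR-218_v13.0 and miR-29c, with root mean square differences between centred profiles of 0.093, 0.10, 0.11, 0.13 and 0.14 on the log2 scale, against a median of 0.52 over all tested miRNAs. The nearest to miR-194 were miR-192, miR-101, miR-199c, miR-421 and miR-218_v13.0, at 0.10, 0.13, 0.13, 0.14 and 0.14, against a median of 0.46. Thus miR-194 and miR-192, which are read by probes with no long shared run, lay close to each other: miR-192 was the nearest of all to miR-194, and miR-194 the second nearest to miR-192. All 8 different miRNAs named here were higher in Limousin, by 0.55 to 0.94, and the likeness includes the breed difference. For miR-192 it also includes Holstein-Friesian values not above background by the 50% rule. The same holds for miR-421, which was detected on 1 Holstein-Friesian array.

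A list of miRNAs that p53 is reported to raise, apart from the 3 described here, had 12 members on the array and 10 tested. Of these 2 rose in Limousin, miR-15a by 0.46 and miR-16b by 0.42 (limma adjusted p = 0.0173 and 0.0328), both regulators of cyclins and BCL2, and 8 did not pass; 13.8% of all tested miRNAs were higher in Limousin. The median was 0.25, against -0.07 for all tested miRNAs. The best known p53 target, miR-34a, differed by 0.26 (9.12 ± 0.32 against 8.87 ± 0.40, SD, n = 4; limma adjusted p = 0.385), and miR-34b and miR-34c were well above background on no array. The partly p53-dependent miR-143 and miR-145 of contractile cells were at -0.06 and -0.23 (limma adjusted p = 0.637 and 0.0912). The others were miR-16a at 0.33 (0.0515), miR-107 at 0.29 (0.0713), miR-141 at 0.24 (0.301), miR-103 at -0.01 (0.982) and miR-200c at -0.17 (0.226). Both calls ended after the GC and length correction, which left miR-145 as the only call, lower in Limousin at -0.37 (limma adjusted p = 0.0169). Without scaling all 10 were called higher, and without Holstein-Friesian replicate 4, Limousin replicate 1 or Limousin replicate 4 the count was 0.

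A list of liver, pancreas and gut miRNAs, again without the 3, had 6 members on the array, of which the liver miRNA miR-122 and the pancreatic miR-216a, miR-216b and miR-217 were well above background on no array. The endocrine and gut miRNA miR-375 was detected on all 4 Limousin and 0 Holstein-Friesian arrays, like miR-192. Its measured signal was 4.27 ± 0.11 in Limousin and 3.59 ± 0.27 in Holstein-Friesian (SD, n = 4). The limma fit called it higher in Limousin (adjusted p = 0.00657), but it entered the test through the Limousin arrays alone. No Holstein-Friesian array was above background for it by the detection rule. Its Limousin mean lay under the mean Holstein-Friesian detection limit of 4.71, so that no fold is given. The call turned to lower in Limousin, at -0.48 with normexp background, -0.46 with none and -0.45 with weak signals raised to the lowest detected probe (limma adjusted p = 0.0148, 0.0190 and 0.0281). The sixth, miR-885, had the same detection pattern and differed by -0.08 (limma adjusted p = 0.664). It was called lower in Limousin at -0.62, -0.61 and -0.55 under the same 3 settings and higher at 0.77 without scaling (limma adjusted p = 0.00347, 0.00328, 0.0110 and 0.0161). With the raised floor, every Holstein-Friesian value of both miRNAs was a floor value. The other 2 settings scaled an added offset or the background along with the signal. The calls of these 3 settings therefore cannot separate the miRNAs from the brightness of the arrays. The list thus had 1 of 2 tested members called, beside 42.0% of all tested miRNAs, and the sign of both differences depended on the setting.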

How the data were processed

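Per the file headers, each deposited scanner file was written by Feature Extraction 10.10.1.1, and its spot intensity had been background-subtracted with no normalization between arrays. The flags for spots well above background and for detected miRNAs, used as other values, were deposited with these intensities. The deposited value table holds log2 values whose making is not given in the sources used here, and it served as an alternative.

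Control and outlier spots were left out and spots of a probe averaged. Signals were scaled by the 75th percentile of each array, taken over probes above background on all 8, then floored at 1 and put on the log2 scale. Each miRNA was represented by its brightest probe. Breed was the only term of a limma fit (lmFit, eBayes; limma 3.58.1, R 4.3.3), with Benjamini-Hochberg adjustment over 269 miRNAs and a threshold of 0.05, and it was tested on simulated data. The number of arrays limits precision.

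The members and lists were chosen with earlier results of these data known. Named were the members, for each tested member the 5 nearest profiles, and the tested members of both lists. Sharing of seeds was to be read from mature sequences, which were not used here. Alternatives covered scaling, background, floor, filter, probe summary, the value table, GC and length correction, the replicate block and each array left out. Feature Extraction's detection call was added after seeing the data.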

Additional observations from a re-analysis of the deposited data

Results flagged for a closer look

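Among the 6 sets of 4 arrays (3 miRNAs in each breed, brightest probe), 2 held an array far from the others of its breed, by a gap over range past Dixon's critical value for 4 samples. Chance gives about 1 in 20 such sets.

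For miR-192 this was Holstein-Friesian replicate 3, at 4.02 against 3.63 for the next array (gap over range 0.871). Without it the difference of miR-192 between breeds was 0.93 in place of 0.83. For miR-215 it was Holstein-Friesian replicate 1, at 0.75 against 1.39 for the next array (gap over range 0.916). Without it the difference was 2.00 in place of 2.16, and neither array was above background for miR-215 by the detection rule.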

How the results depend on the processing

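For miR-192 and miR-215 the values are differences of measured signals that include values not above background by the detection rule. The 75th percentile over all probes moved miR-192 and miR-194 to 1.16 and 1.05; quantile normalization gave 1.24, 0.91 and 2.71 for miR-192, miR-194 and miR-215, and no scaling 1.68, 1.57 and 3.02. The deposited table gave 4.43, 1.01 and 4.28, where miR-192 and miR-215 rest on values fixed for undetected signals. Normexp background gave -0.43, 0.14 and -0.54, and no background correction -0.38, 0.21 and -0.50. Without background correction the sign for miR-192 and miR-215 changed at the scaling step, and the cause under normexp was not tested. The floor at the lowest detected probe gave -0.18 for miR-192, with its Holstein-Friesian values replaced by the floor. For miR-215 it gave -0.94, a difference between floors alone. The mean of all probes moved miR-215 to 1.46. With 1 array left out the differences ran from 0.78 to 0.93 for miR-192, 0.69 to 0.77 for miR-194 and 2.00 to 2.24 for miR-215.

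The number of miRNAs called was 113 (37 higher and 76 lower in Limousin), 174 without scaling (172 and 2), 171 with normexp (26 and 145) and 60 with the replicate block and GC and length correction. Other scalings changed the split, to 104 higher and 30 lower with the percentile over all probes, 56 and 43 with quantile normalization and 81 and 28 in the deposited table. It was 71 to 143 with 1 array left out, 73 without Holstein-Friesian replicate 4 and 71 without Limousin replicate 1. The p53-linked count of 2, both higher in Limousin, became 6, 10 and 4 with the percentile over all probes, no scaling and the deposited table, all higher. Quantile normalization gave 4, of which 3 were higher and 1, miR-200c, was lower. This count was 1, lower in Limousin, after the GC and length correction with or without the block. It was 0 with the replicate block alone, and 0 to 5 with 1 array left out. The liver, pancreas and gut count of 1 became 2 higher in Limousin with no scaling and 2 lower with normexp, no background correction and the raised floor, and 0 where detection on all 8 arrays was required; it stayed 1 with any array left out.

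Same-numbered arrays of the breeds had deviations that correlated at -0.30, -0.25, -0.45 and 0.31 for numbers 1 to 4. Each is 1 pair of arrays, and differently numbered pairs were not set beside them. They therefore cannot decide whether the numbers pair the arrays. The replicate block, which by its construction cannot change the differences of 0.83, 0.72 and 2.16, gave 84 calls.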
